A study of Arabidopsis thaliana with 12 samples.

Results

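AT3G16370 and AT1G75900 are Arabidopsis thaliana genes for GDSL-type esterase/lipases whose transcripts were low in seedlings given the compound DFPM. Each was measured by 1 probe set that names that gene alone in the platform's probe-to-gene table, 259375_at for AT3G16370 and 262682_at for AT1G75900. They are 2 of the 13355 genes that have such a probe set, and the table holds 22746 probe sets for genes in all. The pair was chosen by its low values with DFPM, both in DFPM with control and in ABA+DFPM with ABA. The DFPM differences of both genes are therefore given as a description, and the tests below concern ABA and the other genes of the family.

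GDSL lipases are serine esterases that carry their catalytic serine in a Gly-Asp-Ser-Leu motif near the amino terminus. Plants hold a large family of them, and many members are secreted to the cell wall or the surface. Characterised Arabidopsis members act in the assembly of the cuticle, in the pollen coat, in seed oil breakdown and in defence. Abscisic acid (ABA) is the plant hormone of drought and seed dormancy, and DFPM is a synthetic furan compound known as an antagonist of ABA responses that acts through immune signalling components.

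The study measured RNA of whole Col0 seedlings, 12 days old and grown on plates before transfer to 6-well plates, on 12 one-colour Affymetrix ATH1 arrays, 3 in each of 4 groups. Control seedlings received the solvent DMSO diluted 1 in 5000 in water, for a time that the labels do not give. The ABA group received 10 µM ABA for 6 h and the DFPM group 30 µM DFPM for 6 h. The ABA+DFPM group received both at these doses, with DFPM added 30 min before ABA. Nothing in the labels tells whether replicates were separately grown and treated, so p-values measure the spread between these arrays, which may be technical.

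Levels are the deposited log2 values, which ran from 2.14 to 15.56, so that 1 unit is a doubling. Arrays numbered 3 stood apart: within a group, arrays 1 and 2 correlated at r 0.987 to 0.992 over the 14401 probe sets tested, and either of them with array 3 at 0.875 to 0.920. The green-tissue genes RCA (Rubisco activase) and LHCB4.1 (a light-harvesting protein) lay at log2 8.34 to 13.41 and 9.68 to 13.55. The root-hair expansins EXPA7 and EXPA18 lay at 4.15 to 6.98 and 4.13 to 6.76, and the guard cell regulator FMA at 4.09 to 7.15, so that shoot, root and guard cell transcripts were all present. In whole seedlings, fewer cells of a type and less RNA per cell cannot be told apart.

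AT3G16370, on chromosome 3, was high in control and ABA seedlings and low wherever DFPM was present. In the control arrays numbered 1, 2 and 3 its log2 level was 9.57, 9.69 and 9.05. With ABA the levels were 10.15, 10.14 and 8.89. With DFPM they were 6.42, 6.63 and 4.18. All DFPM values lay below all control and ABA values. With both agents the levels were 5.57, 6.04 and 4.18, again below every array without DFPM. The group means in descending order were 9.73 ± 0.73 for ABA, 9.44 ± 0.34 for control, 5.74 ± 1.36 for DFPM and 5.26 ± 0.97 for ABA+DFPM (SD, n = 3 each). The arrays of ABA and control overlapped, as did those of DFPM and ABA+DFPM, and neither of these neighbouring pairs differed beyond its spread.

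In AT3G16370 the difference between DFPM and control was -3.69 ± 0.68 (SE of the limma fit), with a 95% interval of -5.21 to -2.17, or a 12.9-fold lower level. Between ABA+DFPM and ABA it was -4.46 ± 0.68 (-5.99 to -2.94), or 22.1-fold lower. Against the solvent control, ABA+DFPM was 18.1-fold lower. These differences chose the gene and carry no test. Without DFPM array 3 the difference between DFPM and control was -2.91, or 7.51-fold lower. By array number, the difference between DFPM and control was -3.15, -3.06 and -4.87 for numbers 1, 2 and 3. That between ABA+DFPM and ABA was -4.58, -4.11 and -4.71. Number 3 thus held the lowest difference in both, by a wide margin without ABA and a narrow one with it. Among the 7705 tested probe sets that name 1 gene, AT3G16370 was the 9th most negative in DFPM with control and the 2nd in ABA+DFPM with ABA.

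AT1G75900, on chromosome 1, had another order of levels: high with ABA alone and low with DFPM alone. Its log2 levels in the control arrays were 4.98, 5.23 and 4.92. With ABA they were 9.56, 9.69 and 7.75, all above every other array. With DFPM alone they were 3.10, 3.61 and 3.23, all below the control arrays. With ABA+DFPM they were 5.19, 5.87 and 3.10, so that arrays 1 and 2 lay near the control level and array 3 at the lowest value of this probe set. That value of 3.10 was shared, to all deposited digits, by DFPM array 1 and ABA+DFPM array 3. The group means in descending order were 9.00 ± 1.09 for ABA, 5.04 ± 0.17 for control, 4.72 ± 1.44 for ABA+DFPM and 3.31 ± 0.27 for DFPM (SD, n = 3 each). Control overlapped ABA+DFPM, and ABA+DFPM overlapped DFPM.

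In AT1G75900 the difference between ABA+DFPM and ABA was -4.29 ± 0.68, or a 19.5-fold lower level. The difference between DFPM and control was -1.73 ± 0.68 (95% interval -3.23 to -0.22), or 3.31-fold lower. The first was the 4th most negative of the 7705 single-gene probe sets and the second the 428th. These differences chose the gene and carry no test, and the interval is not adjusted for the number of probe sets. In DFPM with control AT1G75900 was not among the genes called at an adjusted p under 0.05. Without ABA+DFPM array 3 the difference between ABA+DFPM and ABA was -3.48, or 11.1-fold lower. By array number the difference between DFPM and control was -1.87, -1.62 and -1.69, and with ABA present -4.38, -3.83 and -4.65. The interaction, the difference between the ABA effects in the presence and absence of DFPM, was -2.56 ± 0.95 in AT1G75900 and -0.77 ± 0.97 in AT3G16370, again as a description.

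**Figure D1:**
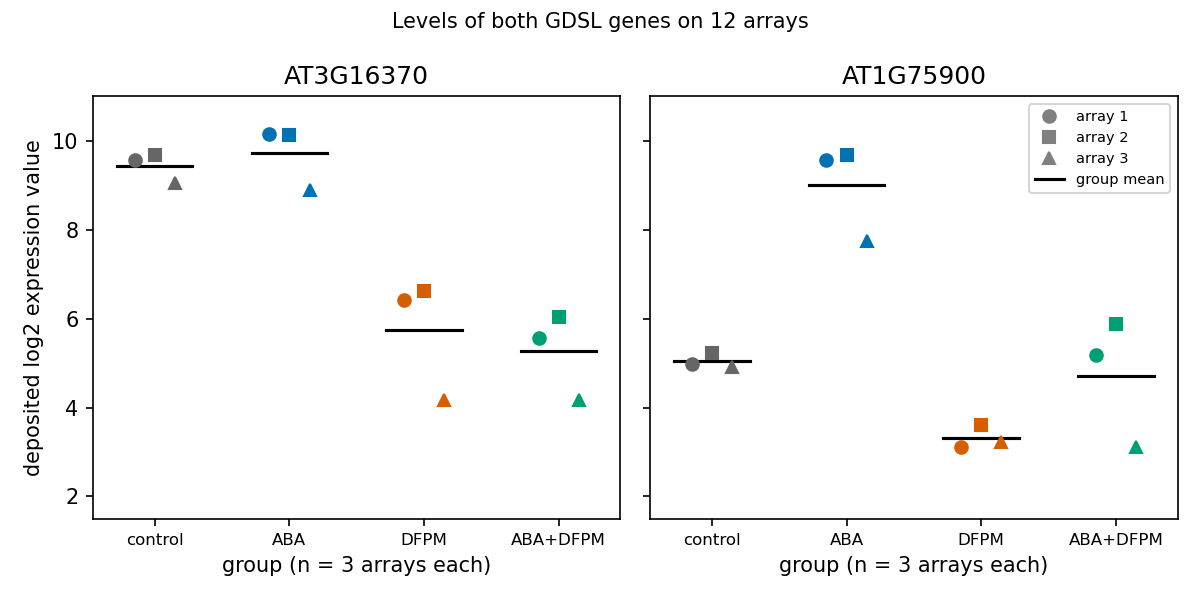
Deposited log2 level (vertical axis) of AT3G16370 and AT1G75900 in the 4 groups, with a symbol for each array number and a black line for the group mean. AT3G16370 lies at 8.89 to 10.15 without DFPM and at 4.18 to 6.63 with it, and AT1G75900 reaches 7.75 to 9.69 with ABA alone.

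Both ABA comparisons use arrays on which the choice of the genes rested. A gene chosen for a low value of ABA+DFPM against ABA tends to be high on the ABA arrays, so the p-values for ABA are not independent of that choice. With this limit, AT1G75900 was higher with ABA. The level was 3.96 ± 0.68 log2 units higher with ABA than in control (95% interval 2.46 to 5.46, adjusted p = 0.00202 by limma), or 15.6-fold, and the groups did not overlap. By array number the rise was 4.59, 4.46 and 2.84. The adjusted p lay at 3.11e-04 to 0.0119 when each of the 12 arrays was left out in turn. In this comparison 14.6% of all probe sets tested were called higher and 14.3% lower, at an adjusted p under 0.05. ABA and control arrays also differed in 3′ minus 5′ signal of the ubiquitin control probe sets, at 0.61 to 0.82 with ABA and 1.03 to 1.29 in control. The same measure for actin was 4.56 to 4.63 and 4.86 to 5.30, and for GAPDH it overlapped, at 1.24 to 1.32 and 1.09 to 1.31. The part of these in the result was not tested.

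AT3G16370 did not pass the test for ABA. It was 0.29 ± 0.68 log2 units higher with ABA than in control (95% interval -1.23 to 1.81, adjusted p = 0.788), with overlapping arrays. The difference was 0.58 and 0.45 in numbers 1 and 2 and -0.16 in number 3. With arrays 1 and 2 only, an alternative chosen after the data were seen, it was 0.51 with an adjusted p of 0.0420. The ABA change of AT1G75900 exceeded that of AT3G16370 by 3.67, with an exact two-sided permutation p of 0.10 over 3 against 3 arrays, the smallest that this design allows (0.20 adjusted over 4 such tests).

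In the presence of DFPM neither gene passed the test for ABA, and the shares of all probe sets called higher and lower were 8.04% and 6.19%. AT1G75900 was 1.40 ± 0.68 log2 units higher with ABA+DFPM than with DFPM (95% interval -0.10 to 2.91, adjusted p = 0.194). The difference was 2.08 and 2.25 in numbers 1 and 2 and -0.12 in number 3. With the replicate number as a block the adjusted p was 0.0479, and without ABA+DFPM array 3 the difference was 2.21 with an adjusted p of 0.0166. With arrays 1 and 2 only it was 2.17 (adjusted p = 5.23e-04). With numbers 1 and 2 averaged in the blocked fit it was 1.02 and did not pass (adjusted p = 0.347), and leaving out any other single array gave no pass.

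AT3G16370 was -0.48 ± 0.68 with ABA+DFPM against DFPM (95% interval -2.01 to 1.04, adjusted p = 0.690). By array number the difference was -0.85, -0.60 and -0.00. Both arrays numbered 3 lay at 4.18, the lowest value of this probe set, and whether that is its floor was not tested. Without ABA+DFPM array 3 the difference was 0.06, and with arrays 1 and 2 only it was -0.73 (adjusted p = 0.0124). The change of AT1G75900 exceeded that of AT3G16370 by 1.89 here (exact permutation p = 0.20, adjusted 0.27).

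Next to AT1G75900 on chromosome 1 stands a run of genes of the same family, which RefSeq names extracellular lipases in EXL4 and EXL6. Of the 3 protein-coding genes on either side, AT1G75880 had its own tested probe set. AT1G75890 and AT1G75920 had one that reached at most 2.14 and 2.60 on any array, and EXL4 and EXL6 had none of their own. AT1G75880 lay at 7.25, 7.30 and 4.98 in control and at 7.11, 7.29 and 4.43 with ABA. With DFPM it lay at 5.34, 6.02 and 2.14, and with both agents at 4.11, 5.20 and 2.35. In every group array 3 was the lowest.

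AT1G75880, 2 protein-coding genes away from AT1G75900, changed by -0.24 ± 1.19 with ABA (adjusted p = 0.904), where AT1G75900 rose. Its ABA change was 4.20 below that of AT1G75900 (exact permutation p = 0.10, the smallest possible, adjusted 0.20). Its difference between DFPM and control was -2.01 ± 1.19 (adjusted p = 0.242, and 0.00106 with the replicate number as a block). Near AT3G16370, the gene AT3G16350 alone had its own tested probe set, and it differed by -0.32 between DFPM and control and -0.55 between ABA+DFPM and ABA.

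**Figure D2:**
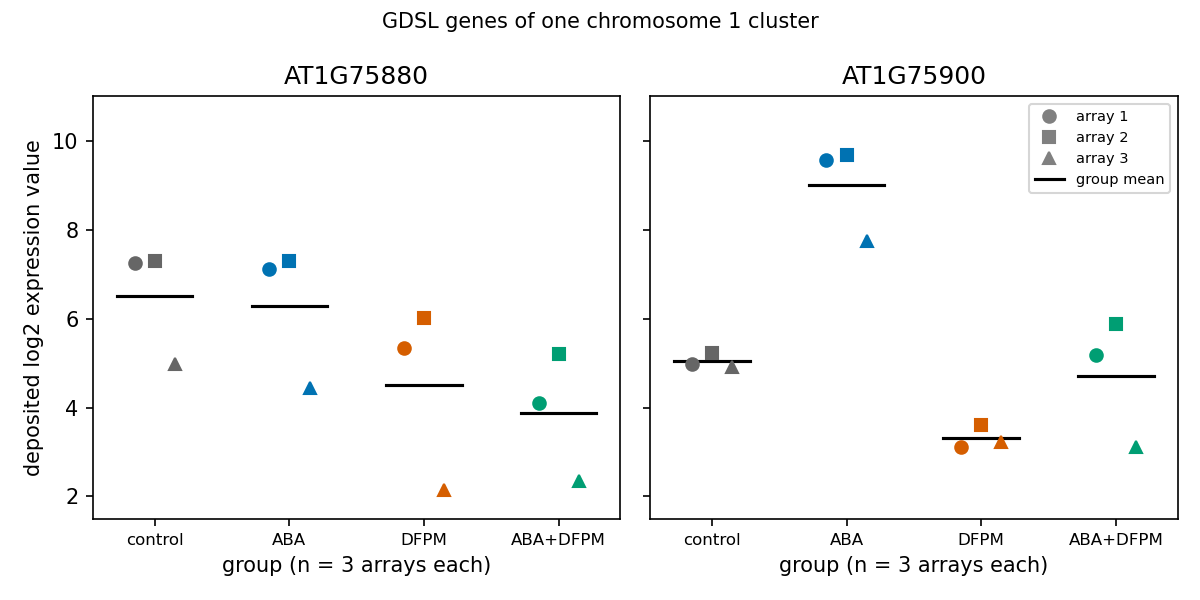
Deposited log2 level (vertical axis) of the neighbouring family genes AT1G75880 and AT1G75900 by group, with a symbol for each array number and a black line for the group mean. AT1G75900 rises from a mean of 5.04 in control to 9.00 with ABA, and AT1G75880 has means of 6.51 and 6.27, with its array 3 lowest in each group.

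The rest of the family was taken from a list of 113 GDSL genes, of which 75 had their own probe set and 34, both genes above included, passed the filter of log2 4 on at least 3 arrays. Of the 41 others, 33 lay under log2 3 on every array, 4 had their highest array between log2 3 and 4, and 4 reached log2 4 on 1 or 2 arrays. The list was written from general knowledge of the family: RefSeq names 9 genes with the word GDSL, all in the list, and 0 of these had their own probe set. All family members named below are known here as GDSL-type genes only.

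With DFPM alone 7 of the 32 other family genes fell (21.9%) and 0 rose. Over all probe sets 11.4% were called lower and 12.7% higher. The median difference was -0.68 in the 32 genes and -0.08 over all probe sets, with 25 genes negative and 7 positive. The range of -3.45 to 1.82 stopped short of the -3.69 of AT3G16370, and AT1G75900 stood 11th of the 34. With no filter 6 of 73 genes fell (8.22%), against 6.54% of all probe sets, a smaller gap.

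AT4G01130 fell by 3.45 ± 0.72 (adjusted p = 0.00800), from a mean of 5.69 ± 1.18 in control to 2.24 ± 0.16 (SD, n = 3), near the lowest value of the scale. AT4G18970 fell by 2.47 ± 0.41 (adjusted p = 0.00258), from 5.84 ± 0.15 to 3.38 ± 0.57. AT3G05180 fell by 2.50 ± 0.57 (adjusted p = 0.0124), from 5.64 ± 0.07 to 3.14 ± 0.34. These 3 calls held with any 1 array left out.

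The other genes that fell were AT1G33811 (-3.35, adjusted p = 0.0306), AT1G29660 (-2.13, 0.0206), AT3G14220 (-1.15, 0.0208) and AT5G14450 (-1.12, 0.0324). Their groups did not overlap, but each call was lost without certain single arrays. These were control 1, control 2 or DFPM 3 for AT1G33811, and control 1, control 2, DFPM 2 or DFPM 3 for AT1G29660. They were control 2 or DFPM 3 for AT3G14220, and any control or DFPM array for AT5G14450. Larger differences that did not pass were -2.78 in AT1G29670 (adjusted p = 0.125) and -2.56 in AT2G04570 (0.0936), where DFPM array 3, at 4.96 and 2.32, was far below arrays 1 and 2, and -1.93 in AT5G45950 (0.143). With the replicate number as a block these came to 0.00963, 0.00507 and 0.0963.

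The count of 7 was 4 without control array 1 or DFPM array 3 and 3 without control array 2. In these 3 fits 7.74%, 7.58% and 6.02% of all probe sets were called lower. With the block the count was 13, of which 10 were lower and 3 higher. The shares of all probe sets were then 26.5% lower and 20.9% higher. With arrays 1 and 2 only the count was 19, of which 15 were lower and 4 higher. The share of all probe sets called in that fit is not given here, so this count does not tell of a stronger family effect. Transcripts of green tissue were also lower with DFPM, unevenly between numbers: RCA by -1.19 in the mean of numbers 1 and 2 and by -3.83 in number 3, and LHCB4.1 by -0.88 and -3.01. Both measured root markers were lower, EXPA7 by -0.73 and -0.75 and EXPA18 by -1.06 and -1.40. In the fit EXPA18 passed (-1.17, adjusted p = 0.0348) and RCA, LHCB4.1, EXPA7 and FMA did not (0.132, 0.191, 0.351 and 0.869). With the block RCA and LHCB4.1 passed too (adjusted p = 0.0210 and 0.0156). EXPA7 then lay at the threshold, and FMA did not pass (0.511). The part of these marker differences in the DFPM results, those of AT3G16370 and AT1G75900 included, was not tested.

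With DFPM on top of ABA, again 7 of the 32 genes fell (21.9%) and 0 rose, against 5.96% and 6.64% of all probe sets. With no filter 6 of 73 fell (8.22%), against 3.00% of all. The median was -0.93, and -0.09 over all probe sets. The 2 lowest of the 34 differences were in AT3G16370 and AT1G75900. AT1G29660 (-1.95, adjusted p = 0.0457), AT4G18970 (-1.75, 0.0206) and AT5G14450 (-1.93, 0.00478) fell in both DFPM comparisons. AT5G45950 (-3.41, 0.0345), AT1G28570 (-2.23, 0.0181) and AT3G48460 (-2.21, 0.00457) fell with ABA present. The gene that completes the count, AT1G28650, differed by -2.54, but it passed the filter only through its 3 ABA arrays and had to differ. AT1G28570 and AT3G48460 also needed their ABA arrays, at 4.63 to 5.94 and 4.92 to 6.28, to pass the filter. Elsewhere AT1G28570 reached log2 4 only in control (highest array 5.05), and AT3G48460 only on ABA+DFPM array 2, at 4.17. The filter thus favoured these falls, and the share of 21.9% is in part its outcome. Among the genes that did not pass were AT1G29670 (-3.80, adjusted p = 0.0714), AT2G04570 (-2.95, 0.0879), AT1G33811 (-2.94, 0.0758) and AT4G01130 (-2.31, 0.0647). With the replicate number as a block these came to 0.00374, 0.00421, 8.38e-04 and 0.00254.

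AT5G45950, AT1G28570 and AT3G48460 did not pass with DFPM alone, and whether their DFPM differences differ was not tested. AT1G28650, AT1G28570 and some genes below lie outside the rule for named genes and were named after their values were seen. The calls of AT5G14450 and AT3G48460 held with any 1 array left out, and those of AT1G29660, AT5G45950, AT4G18970 and AT1G28570 were lost in 9, 6, 4 and 2 of the 12 such fits. The count of 7 was 4 without ABA array 2 and 13 without DFPM array 3, where 2.84% and 7.96% of all probe sets were called lower. It was 18 with the replicate block, with 17 lower and 1 higher, while 17.6% and 13.6% of all probe sets were called so. With arrays 1 and 2 only the count was 22, with 18 lower, and the share of all probe sets is not given here. Between ABA+DFPM and ABA the green-tissue genes differed by -1.10 (numbers 1 and 2) and -3.64 (number 3) in RCA and by -0.55 and -2.04 in LHCB4.1. The differences were -0.72 and -1.88 in EXPA7, -1.07 and -1.74 in EXPA18, and 0.18 and -0.37 in FMA. In the fit EXPA18 passed (adjusted p = 0.0374) and RCA, LHCB4.1, EXPA7 and FMA did not (0.209, 0.457, 0.226 and 0.998). With the block RCA and EXPA7 passed too (0.0384 and 0.0155). The part of these marker differences in the result was not tested.

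**Figure D3:**
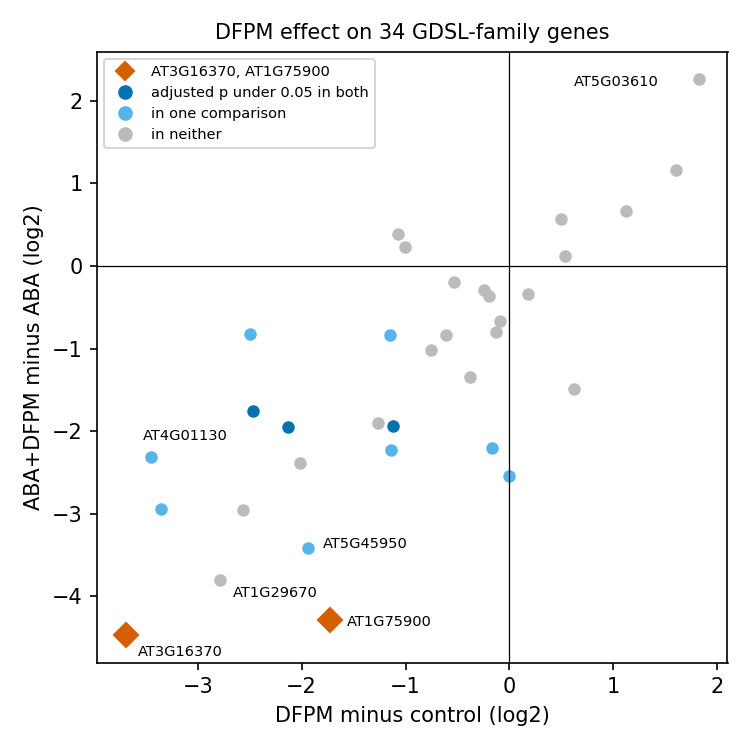
Log2 difference between DFPM and control (horizontal axis) and between ABA+DFPM and ABA (vertical axis) for the 34 GDSL genes tested, coloured by calls. AT3G16370 lies lowest on both axes, and most other genes (23 of 32) are negative on both, with 5 positive on both.

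Under ABA the family moved both ways. Of the 32 other genes 10 rose (31.2%) and 4 fell (12.5%), against 14.6% and 14.3% of all probe sets. The share that fell was thus near that of all probe sets. The median was 0.10, and -0.09 over all probe sets, in a range of -3.43 to 6.25. With no filter 6 of 73 rose (8.22%) and 4 fell (5.48%), against 8.71% and 8.24% of all, so the share that rose was then near that of all probe sets too. AT3G50400 rose by 6.25 ± 0.90 (adjusted p = 7.48e-04), from 3.60 ± 0.90 in control to 9.86 ± 0.18 (SD, n = 3), past the 3.96 of AT1G75900. AT5G45950 rose by 5.04 ± 0.90 (0.00259), from 4.23 ± 0.80 to 9.27 ± 0.53. AT1G28650, counted among the 10, lay at 2.14, the lowest value of the scale, on all control arrays and at 4.99 to 5.56 with ABA, the group through which alone it passed the filter. AT3G48460 rose by 2.64 ± 0.37 (6.29e-04), but outside the ABA group it reached log2 4 only on ABA+DFPM array 2, at 4.17.

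The genes that fell with ABA were AT1G29660 (-3.43, adjusted p = 0.00152), AT3G62280 (-2.33, 0.0272), AT3G14220 (-1.58, 0.00362) and AT2G27360 (-1.39, 0.00646). The call of AT3G62280 was lost without control 3, ABA 1 or ABA 2. The count of 14 called was 9 without control array 1 or 2 and 8 without ABA array 1 or 2. In these fits, in this order, 11.4%, 10.8%, 9.78% and 10.6% of all probe sets were called higher. The shares called lower were 10.1%, 8.25%, 6.90% and 7.97%. The count was 20 with the block, 13 higher and 7 lower, while 22.1% and 26.4% of all probe sets were called so. With arrays 1 and 2 only the count was 23, and the share of all probe sets is not given here. AT3G48460 and AT5G45950 both rose with ABA and fell when DFPM was added to ABA, comparisons that share the ABA arrays. The markers differed between ABA and control by -0.73 (numbers 1 and 2) and -1.20 (number 3) in RCA, whose groups did not overlap, and by -0.50 and -0.61 in LHCB4.1. The differences were -0.52 and -1.28 in FMA, 0.04 and -0.03 in EXPA7, and -0.22 and -0.85 in EXPA18. None of the 5 passed (adjusted p 0.394 to 0.985), but FMA did with the replicate number as a block (adjusted p = 0.0443). The part of these markers in the ABA results was not tested.

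In DFPM-treated seedlings 3 of the 32 genes rose with ABA and 3 fell (9.38% each), near the 8.04% and 6.19% of all probe sets, with a median of 0.24 (all probe sets -0.09). With no filter 2 of 73 rose (2.74%) and 3 fell (4.11%), against 4.34% and 2.94% of all. The genes that rose were AT3G50400 (4.14, adjusted p = 0.0152), AT5G45950 (3.56, 0.0276) and AT3G05180 (3.38, 0.00424). Those that fell were AT1G29660 (-3.25, 0.00439), AT2G27360 (-1.80, 0.00352) and AT3G14220 (-1.27, 0.0210). All 6 had passed in the same direction without DFPM, where the call of AT3G05180 was lost in 9 of the 12 fits without 1 array. The calls of AT3G50400, AT5G45950 and AT3G14220 were lost in 3, 5 and 4 of the 12 fits that left out 1 array. The count of 6 was 3 without DFPM array 1, DFPM array 2 or ABA+DFPM array 1. In these fits 4.65%, 4.28% and 3.87% of all probe sets were called higher and 2.01%, 2.14% and 1.73% lower. With arrays 1 and 2 only the count was 22, and the share of all probe sets is not given here. With the block the count was 13, 8 higher and 5 lower, while 16.2% and 19.0% of all probe sets were called so. The 3′ minus 5′ signal also separated these groups, at 0.73 to 0.97 with ABA+DFPM and 1.04 to 1.25 with DFPM for ubiquitin and at 4.27 to 4.68 and 4.86 to 5.05 for actin. Its part in the results was not tested.

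**Figure D4:**
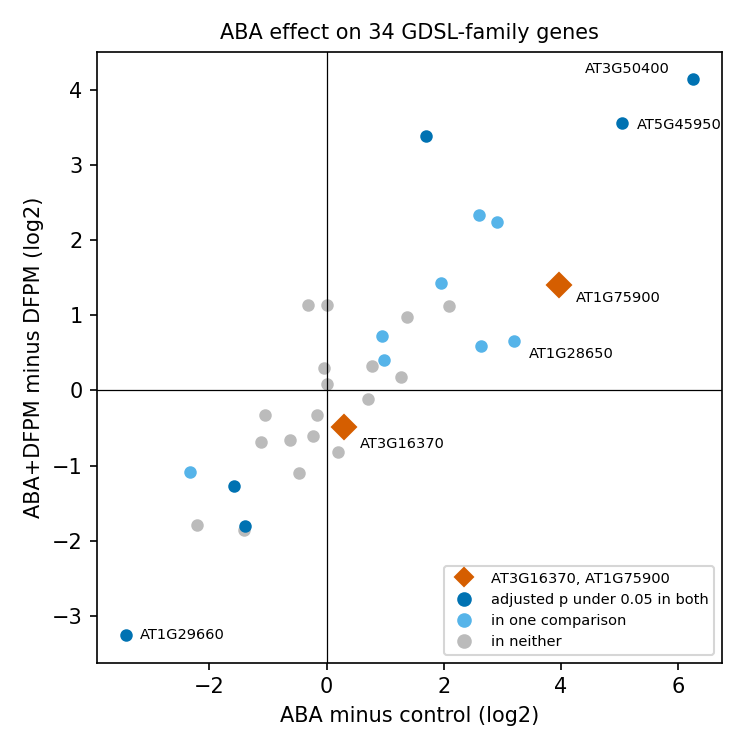
Log2 difference between ABA and control (horizontal axis) and between ABA+DFPM and DFPM (vertical axis) for the 34 GDSL genes tested, coloured by calls. AT1G75900 lies at 3.96 and 1.40, AT3G16370 at 0.29 and -0.48, and AT3G50400 is farthest to the right at 6.25 and 4.14.

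Both effects were compared between backgrounds that share no arrays. Across the 32 other genes the ABA effects without and with DFPM correlated at r 0.889 (rho 0.863), and the DFPM effects without and with ABA at r 0.748 (rho 0.695). Over all 14401 probe sets r was 0.875 and 0.840. Genes are not independent replicates, so these values are a description.

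The genes whose levels followed AT3G16370 most closely over the 12 arrays were AT3G60210 (r 0.990), AT5G48490 (0.976), AT1G15260 (0.970), LCR69 (0.969), a small cysteine-rich protein of the defensin type, and SBE2.2 (0.968), a starch branching enzyme. They had the same division by DFPM. AT5G48490 had means of 7.84, 7.47, 3.93 and 3.28 in control, ABA, DFPM and ABA+DFPM, and SBE2.2 had 8.07, 7.61, 6.13 and 5.65. AT3G60210, with the highest r, had a far smaller drop than AT3G16370, with means of 9.34, 9.37, 8.71 and 8.58. AT1G44130 (r -0.988), the defensin-type gene LCR67 (-0.984) and AT5G25930 (-0.980) ran most opposite. LCR67 had means of 2.58, 2.51, 8.08 and 9.25, near the lowest value of the scale without DFPM and far above it with DFPM.

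AT1G75900 was followed most closely by AT5G62140 (r 0.970), AT1G57590 (0.968), AT5G17600 (0.958), AT3G48460 (0.953) and AOP1 (0.951), the last of a family of glucosinolate-modifying oxygenases. AT3G48460 is itself on the GDSL list, with means of 3.10, 5.73, 2.93 and 3.53 in control, ABA, DFPM and ABA+DFPM. Prx37 (r -0.975), a class III peroxidase, ran most opposite, with means of 10.00, 4.42, 12.30 and 9.90. AT4G20000 (-0.970) and AT4G29520 (-0.966) came next. AT3G16370 and AT1G75900 correlated with each other at r 0.718 (rho 0.680), which ranked 889th of 7704 for the first and 545th for the second. Arrays of a group share their treatment, so all these values describe likeness over 12 arrays and no more.

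**Figure D5:**
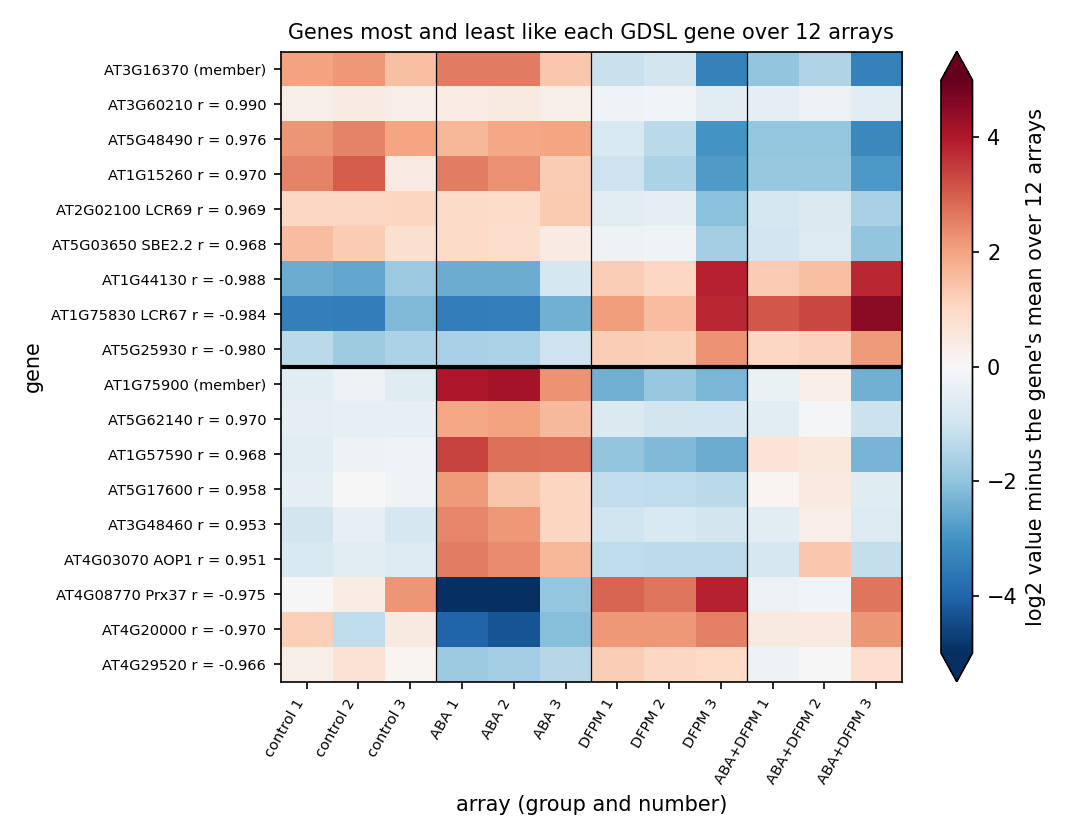
Level of AT3G16370 and AT1G75900 and of the genes most like and most unlike each of them over the 12 arrays (columns, by group and array number), as the log2 difference from each gene's mean, with r at the side. The likest genes of AT3G16370 are low on all 6 arrays with DFPM, and those of AT1G75900 are high on the 3 arrays with ABA alone.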

How the data were processed

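Biotin-labelled RNA, extracted with Trizol and RNeasy columns per the labels' protocols, was hybridised to Affymetrix ATH1 arrays. The deposited log2 values per probe set come from GCRMA and affy, per the submitters' processing notes, with versions, settings and genome build not given in the sources used here. Scanner files and detection calls were not used here. Of 22810 probe sets, 64 controls were left out and 14401 with log2 4 or more on at least 3 of 12 arrays were kept. Genes came from the platform table, where 13513 probe sets name 1 gene, 503 several and 8730 none (unnamed here); RefSeq gave symbols, chromosomes and gene order.

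Groups were compared with limma 3.58.1 (R 4.3.3) by lmFit and eBayes on all 12 arrays, two-sided, with Benjamini-Hochberg adjustment over all kept probe sets in each comparison and a threshold of 0.05. Fold changes are 2 to the power of log2 differences. GCRMA sets a lowest value, so differences of genes near it may be understated, which was not tested. The scripts were tested on simulated data. Figures used Python 3.11.15 and matplotlib 3.10.9.

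The 2 genes, the lists and the tests were chosen with earlier results of these data known. The rule named both genes, up to 12 genes of each list by the size of the DFPM difference, called ones first, and the 5 most like and 3 least like single-gene probe sets of each by Pearson r. Of the other lists, 31 cuticle genes had 2 with their own probe set and 0 kept, 4 epidermis markers had 0, and 2 of 6 root, 1 of 5 guard cell and 2 of 5 green tissue markers were kept. The titles number the arrays 1 to 3 in every group. In all 18 pairs of arrays with one number, departures from the group mean correlated (r 0.426 to 0.802), which meets the rule used for taking the numbers as pairs. Array 3 stood apart in every group, so these values cannot tell whether numbers 1 and 2 are separate pairs. The reported fits have no block, so differences between array numbers stay in their spread. For AT3G16370 the SE of the difference between DFPM and control was 0.68, and 0.32 with the block. The blocked fit is an alternative, given for some of the calls that it changes and not for all. What a number stands for is not in the labels. Alternatives were quantile or median scaling, no or a stricter filter, a trended robust prior, the 2 groups alone, the replicate number as a block, numbers 1 and 2 averaged, leaving out each array and, added after the data were seen, arrays 1 and 2 only.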

Additional observations from a re-analysis of the deposited data

How the results depend on the processing

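The rise of AT1G75900 with ABA kept its direction and call under the 8 planned settings other than leaving out an array (3.68 to 4.13, adjusted p 2.45e-04 to 0.0149) and in all 12 fits without 1 array (3.62 to 4.59). For ABA+DFPM with DFPM, that gene ran from 0.83 to 2.21 without 1 array, was 1.40 (adjusted p = 0.0479) with the replicate block, 1.02 (0.347) when numbers 1 and 2 were also averaged, and 2.17 with arrays 1 and 2 only. AT3G16370 ran from -1.27 to 0.06 without 1 array in the same comparison, where the positive value reverses its direction; with arrays 1 and 2 only it was -0.73, and its ABA difference was 0.51. The cause was not tested. The DFPM differences ran from -4.14 to -2.91 and -4.88 to -3.92 (AT3G16370) and from -1.88 to -1.62 and -4.91 to -3.48 (AT1G75900) without and with ABA, in fits without 1 array.

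Counts of other family genes called, for ABA, for DFPM, for DFPM added to ABA and for ABA added to DFPM, in this order, were 14, 7, 7 and 6. Without 1 array they ran from 8 to 14, 3 to 9, 4 to 13 and 3 to 9. Arrays 1 and 2 only gave 23, 19, 22 and 22. The replicate block gave 13, 18 and 13 in the last 3. The filter of log2 5 on 6 arrays, which left fewer genes tested, gave 8, 4 and 2 in the first 3. No filter, which tested 73 genes, gave 10, 6, 6 and 5. The fit of the 2 groups alone gave 3 and numbers 1 and 2 averaged gave 2, both in the last. The share of all probe sets called also changed between settings, so a count alone does not tell of a stronger or weaker family effect. The block changed no other call of the 2 genes in the ABA comparisons. With 3 arrays a group the precision is limited by their number, and genes near the lowest value of the scale may have understated differences.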

Other observations

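Among the 41 family genes below the filter, a few were present on few arrays; they were picked after their values were seen and carry no test. AT5G45670 lay at 3.26, 4.66 and 5.92 in control and at 2.14 to 2.24 on all other arrays. AT4G28780 lay at 3.93, 4.62 and 3.07 with ABA, at 2.32 to 2.71 in control and at 2.14 on all 6 arrays with DFPM. AT3G27950 reached 6.12 in control array 3 and 7.28 in DFPM array 3, against 2.14 to 2.77 elsewhere. AT1G73610 ran from 2.25 to 5.08 with ABA+DFPM, from 2.25 to 3.15 with ABA, and from 2.14 to 2.25 in control and with DFPM.

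AT5G37690, which passed the filter, was higher in array 3 of each group, at 7.51 in control, 8.23 with ABA, 6.06 with DFPM and 7.79 with both, while arrays 1 and 2 lay at 2.49 to 5.56. What the number stands for is not given in the labels.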
